A study of Mus musculus with 32 samples.

Results

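The livers examined here were taken 24 h and 30 h after 2/3 hepatectomy and were set against unoperated liver, called time 0. Arrays were assigned by the source and title that the submitters gave each sample, which gave 2 arrays at 24 h, 2 at 30 h and 2 at time 0, 6 of the 32 arrays of a time course of mouse liver regeneration and liver development. All 3 groups were female CD-1 mice, an outbred stock, from Charles River or the submitters' own colony, and all were aged 10 weeks. The operation removed the 3 anterior lobes with the gallbladder under ketamine and xylazine, with buprenorphine for pain until the animals were killed with CO2. The time 0 arrays carry the label of normal liver and the same operation text, and no sham-operated group was analysed here, so the hepatectomy, the anaesthesia, the analgesic and the loss of the gallbladder cannot be told apart. Each array held biotin-labelled cRNA from 6 µg of total liver RNA pooled from at least 3 animals, and was an Affymetrix Mouse Genome 430 2.0 array.

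After a partial hepatectomy the cells of the remaining lobes leave quiescence and divide until the liver's mass is restored. Macrophages of the liver, the Kupffer cells, release cytokines such as TNF and IL-6, which act on hepatocytes through NF-kB and STAT3 and raise the acute phase proteins, the plasma proteins made in injury and inflammation. Hepatocytes also take up and store fat for a time, and keep supplying glucose, plasma proteins and bile while they prepare to divide. The question put to these arrays was what had returned to the level of unoperated liver by 24 and 30 h and what had not.

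Signals are array intensities on the submitters' linear scale, and a change is a difference of log2(signal + 16) with its standard error (SE) from limma, fitted over 18194 genes with 1 probe set each. A gene is called raised or lowered where the Benjamini-Hochberg adjusted p over all genes was under 0.05. With 2 pools a group, p-values measure only the spread between pools. That spread was estimated over all 32 arrays of the series, embryonic liver included, and not from the 6 arrays compared. On whole liver RNA, fewer cells of a type and less RNA per cell cannot be told apart. Hepatocyte markers were abundant on all 6 arrays, with summed signals of 47410 and 54630 at time 0 and 61290 to 65870 later, and 0 of the 9 were called by limma (1 at an unadjusted p under 0.05).

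The first time 0 array was low at the abundant end: of 753 genes that averaged over 1000, 573 had their lowest of the 6 signals on it and 30 on the second time 0 array, and the median log2 difference of the first from the second was -0.618 over these genes and 0.0478 over all genes. After quantile normalization that difference over the abundant genes was -0.0526. The second 24 h array lay further from time 0 than the first in 109 of the 126 raised and 61 of the 77 lowered genes described next. The highest signals were 9245 and 9290 at time 0 and 10640 to 11530 at 24 and 30 h, so folds of the brightest genes were measured near the top of the scale. The log2 ratio of the 3' to the 5' control probe sets of Actb, a sign of RNA quality, was 0.769 to 1.21 on the 6 arrays and overlapped between the groups. The second 48 h array, which entered the fit over all arrays, stood apart at 2.5, with 1.25 for Gapdh, where the other adult arrays lay between 0.574 and 1.74 and between -0.44 and 0.325.

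At 24 and 30 h together, 203 of 18194 genes (1.12%) differed from time 0, with 126 raised (0.693%) and 77 lowered (0.423%). Of these, 92 rose and 40 fell by at least 2-fold. The median log2 difference of all genes was -0.0149, and for 15650 genes (86%) the 95% interval of the change lay inside 2-fold either way. All 4 later arrays lay above both time 0 arrays for 10.6% of all genes and below both for 10.9%. Genes named below for the size of their change had to meet this condition. For them it is no further evidence of a change. The count of called genes was 93 without the first time 0 array, 102 without the second 24 h array, 120 without the first 30 h array, 61.6% of its size without the second 30 h array, and 334 without the first 24 h array. It was 74 when only the 20 adult arrays entered the fit, 411 when the 48 h arrays were left out and 19 when the 6 arrays were compared alone.

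Of the 28 acute phase genes measured, 17 were raised and 0 lowered, with a median log2 difference of 1.47. The genes of lipocalin 2 (Lcn2), serum amyloid A (Saa1, Saa2 and Saa3), the orosomucoid Orm2 and nicotinamide N-methyltransferase (Nnmt) rose 5.63-fold to 30.5-fold, and Orm1 and Orm3 rose 3.32-fold and 5.34-fold. Of the other 11 members, 10 had a positive difference without passing the test, and A2m had -0.28 (adjusted p = 0.73, limma).

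Lcn2 encodes lipocalin 2, a secreted protein that binds bacterial iron carriers. Its signal was 219 and 245 at time 0, 7507 and 8338 at 24 h, and 6993 and 7382 at 30 h. All 4 later pools stood far above both time 0 pools, and the change was 30.5-fold (log2 4.93 ± 0.42 SE, adjusted p = 6.78e-07 by limma). Its means at 12, 18 and 72 h were 7085, 8917 and 6564. At 48 h the arrays lay far apart, at 8535 and 2821, the lower being the array with the outlying 3' to 5' ratios.

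The serum amyloid A genes encode small apolipoproteins of high-density lipoprotein that are made in inflammation. Saa2 measured 904 and 785 at time 0, 8522 and 8937 at 24 h, and 8564 and 9056 at 30 h; this was a 10.2-fold rise (log2 3.35 ± 0.28 SE, adjusted p = 5.19e-07). Saa1 measured 1563 and 1968, then 9816 and 9712, then 10037 and 10249, a rise of 5.63-fold (log2 2.49 ± 0.23 SE, adjusted p = 1.49e-06). Both genes were at a similar height at 24 and 30 h, with the 2 groups well apart from time 0, and the Saa1 signals were near the highest on the arrays. Saa3, the member best known from macrophages and other cells outside the hepatocyte, measured 139 and 91.9 at time 0, 1348 and 1736 at 24 h, and 1804 and 2314 at 30 h (13.8-fold, log2 3.79 ± 0.52 SE, adjusted p = 0.000447). Saa1 and Saa2 are near-identical copies and their probe sets may share targets, so their values are not independent.

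The promoters of Lcn2, Saa1, Saa2 and Saa3 are shown because these genes rose together. Each is the 250 bases before the transcription start from RefSeq on GRCm38.p6, 5' to 3' in the direction of the gene, with capitals at the match to TTGCNNAA, a short pattern of the kind bound by C/EBP factors. The windows lie at chr2:32387740-32387989 (minus strand) for Lcn2, chr7:46742981-46743230 (minus) for Saa1, chr7:46751583-46751832 (plus) for Saa2 and chr7:46715677-46715926 (minus) for Saa3.
Lcn2: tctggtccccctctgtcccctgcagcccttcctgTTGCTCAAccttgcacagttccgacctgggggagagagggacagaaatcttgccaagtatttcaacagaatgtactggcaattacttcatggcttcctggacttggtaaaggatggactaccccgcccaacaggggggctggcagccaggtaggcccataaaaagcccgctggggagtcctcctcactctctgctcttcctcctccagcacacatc
Saa1: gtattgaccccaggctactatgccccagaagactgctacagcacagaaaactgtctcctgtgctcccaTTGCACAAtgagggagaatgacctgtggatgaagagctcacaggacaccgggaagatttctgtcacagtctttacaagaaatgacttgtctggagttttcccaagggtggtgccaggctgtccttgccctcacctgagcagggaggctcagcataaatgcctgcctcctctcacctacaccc
Saa2: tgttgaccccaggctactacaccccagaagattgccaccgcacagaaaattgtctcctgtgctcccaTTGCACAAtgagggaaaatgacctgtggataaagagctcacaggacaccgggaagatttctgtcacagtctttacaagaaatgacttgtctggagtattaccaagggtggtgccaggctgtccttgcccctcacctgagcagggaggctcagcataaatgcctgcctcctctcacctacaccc
Saa3: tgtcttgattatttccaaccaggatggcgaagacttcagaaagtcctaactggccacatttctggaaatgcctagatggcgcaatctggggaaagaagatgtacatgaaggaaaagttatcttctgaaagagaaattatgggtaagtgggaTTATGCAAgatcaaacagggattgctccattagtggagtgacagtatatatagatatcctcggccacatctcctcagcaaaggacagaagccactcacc

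Each of the 4 windows held 1 match to TTGCNNAA, read on both strands, and the match in Saa3 is on the other strand. TTGCNNAA occurred in 8 of the 14 raised acute phase genes that had a window (57.1%), in 17 of 97 raised genes (17.5%), in 5 of 67 lowered genes (7.46%) and in 1166 of all 14453 tested genes with a window (8.07%). TTCNNNGAA, a pattern of the kind bound by STAT3, occurred in 21.4%, 9.28%, 4.48% and 6.3% of the same sets. It had 0 matches in each of the 4 windows shown. Acute phase genes that were not raised were not counted as a set for either pattern. The acute phase genes are part of the raised genes, and a match is a description of letters, not of binding. The windows of Saa1 and Saa2 are near-identical, so their matches are not independent.

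Orm2, an orosomucoid that carries small molecules in plasma, measured 264 and 209 at time 0, 3532 and 3697 at 24 h, and 3804 and 4646 at 30 h. The 4 later arrays were above both time 0 arrays and within 1.5-fold of each other, and the rise was 15.6-fold (log2 3.96 ± 0.51 SE, adjusted p = 0.000214). Its means were 1017 at 12 h and 5928 at 72 h. Nnmt, which methylates nicotinamide, measured 80.6 and 50.9, then 621 and 2596, then 763 and 933 (13.1-fold, log2 3.71 ± 0.51 SE, adjusted p = 0.000447). The second 24 h array was the highest for Nnmt, and the lowest operated array was still well above both time 0 arrays. Steap4, a metalloreductase, measured 514 and 818, then 2556 and 4057, then 2105 and 2198 (3.98-fold, log2 1.99 ± 0.28 SE, adjusted p = 0.000472).

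The metallothioneins, small proteins that hold zinc and copper, had signals at time 0 that lay far apart. Mt2 measured 837 and 2377 at time 0 and 7110 to 8069 on the 4 later arrays, a log2 change of 2.37 (adjusted p = 0.000919) that was 1.62 and not called without the first time 0 array. Mt1 measured 947 and 3489 at time 0 and 8019 to 9212 later, a log2 change of 2.20 (adjusted p = 0.00475) that was 1.27 and not called without that array, and 0.26 on a probe set that matches no other gene. Hp, which encodes haptoglobin, rose by only 0.97 on the log2 scale (adjusted p = 0.0267), and by 0.27 after quantile normalization, where it was not called.

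In all, 9 of the 17 acute phase calls were lost without the first time 0 array: Orm1 was then 1.29, Serpina3n 1.67, Itih3 1.17, Apcs 1.04, Itih4 0.82, Hp 0.53 and Cp 0.49, beside both metallothioneins. Orm3 was lost without the second time 0 array, at 2.05. The list then had 8 raised members and a median of 1.09 without the first time 0 array, 15 and 0.94 after quantile normalization, 8 in the fit of the 20 adult arrays and 4 when the 6 arrays were compared alone. Among members that were not called, Lbp had a log2 difference of 1.55 (adjusted p = 0.157), Hamp, the iron hormone hepcidin, 1.05 (adjusted p = 0.104), Crp 1.00 (adjusted p = 0.183), and the 3 fibrinogen chains Fgb, Fgg and Fga 0.60, 0.55 and 0.44.

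**Figure D1:**
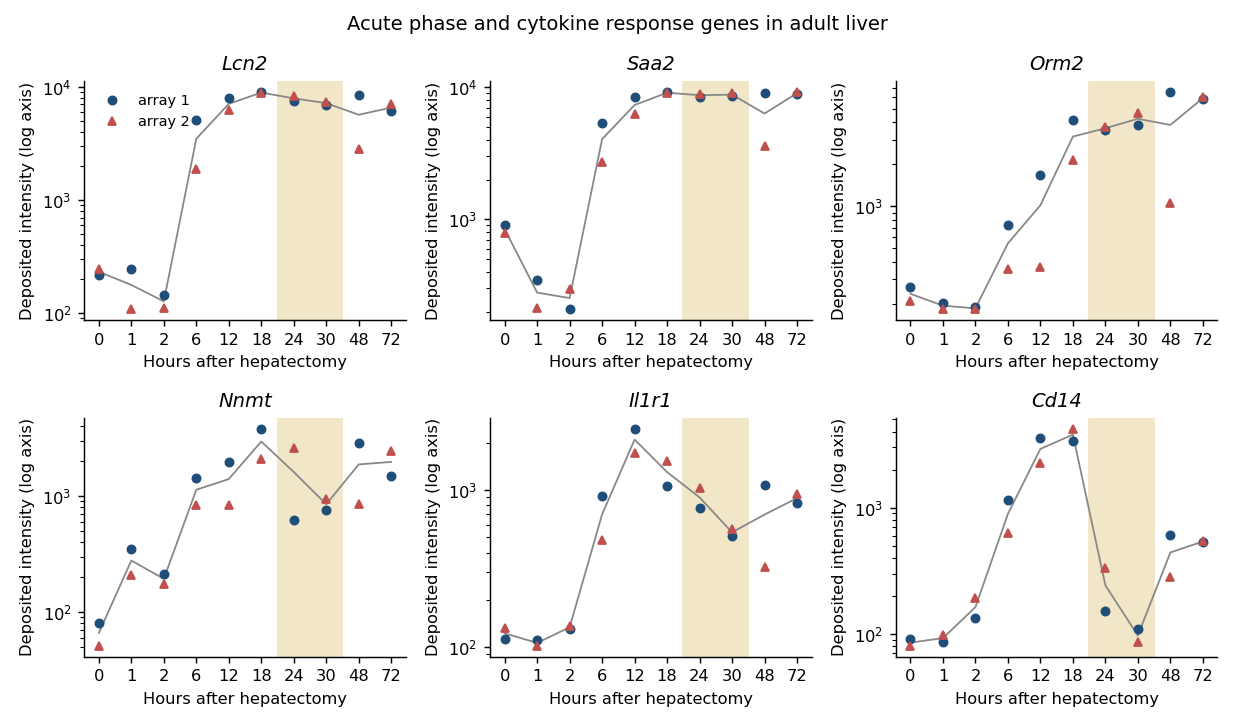
Signal of Lcn2, Saa2, Orm2, Nnmt, Il1r1 and Cd14 (log axis) against hours after hepatectomy from 0 to 72, with array 1 as circles, array 2 as triangles, the line through the mean of the 2 and 24 to 30 h shaded. Lcn2, Saa2, Orm2 and Nnmt stood above time 0 in the shaded span on every array, and Cd14 had come down from a mean of 3791 at 18 h to between 85.4 and 332.

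Most signalling genes that act before the acute phase proteins were not called against time 0 and had come down from 12 and 18 h where they had changed. Of the 26 genes of IL-6, STAT3 and NF-kB signalling, 1 was raised and 0 lowered at 24 and 30 h (10 at an unadjusted p under 0.05), and the list's median was 0.0817 beside -0.0149 over all genes. Against the 4 arrays at 12 and 18 h, where 1479 of all genes differed (8.13%), with 681 higher (3.74%) and 798 lower (4.39%), 7 of the 26 were lower and 0 higher, with a median of -0.378 beside -0.0252 over all genes. The 7 were 4 without the second 24 h or the second 30 h array. The 1479 were 824 without the first 24 h array, 851 without the second 18 h array, and 971 and 958 without the first and the second 30 h array, and 52 when the 8 arrays were compared alone.

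Il1r1, the receptor for interleukin 1, was the signalling gene that was still raised. It measured 112 and 133 at time 0, 770 and 1028 at 24 h, and 508 and 569 at 30 h, so that all 4 later pools exceeded both time 0 pools. The rise was 5.13-fold (log2 2.36 ± 0.33 SE, adjusted p = 0.000454), and against 12 and 18 h, with means of 2097 and 1302, the change was -1.21 ± 0.27 (adjusted p = 0.00608). Another probe set of Il1r1 had a log2 difference of -0.72 from time 0.

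Cd14, a receptor for bacterial lipopolysaccharide, measured 90.2 and 80.1 at time 0, 152 and 332 at 24 h, and 108 and 85.4 at 30 h. One 30 h array lay between the time 0 arrays, and the difference of 0.71 ± 0.33 did not pass the test (adjusted p = 0.461). Its means at 12 and 18 h were 2924 and 3791, and the change from those times was -4.32 ± 0.27 (adjusted p = 5.33e-09). Cebpd, a transcription factor of the acute phase, was 116 and 131 at time 0, and 3 of the 4 later arrays were higher, up to 237 (0.38 ± 0.24, adjusted p = 0.66), and fell by 1.77 from 12 and 18 h (adjusted p = 6.49e-06). Socs3, the feedback inhibitor of STAT3 signalling, was 288 and 505 at time 0, 724 and 918 at 24 h, and 370 and 456 at 30 h. Both 24 h signals of Socs3 were above time 0 and both 30 h signals lay between those of time 0, with neither time called (adjusted p = 0.105 at 24 h). Stat3 itself was 515 and 604 at time 0 and 838 to 965 later, a difference of 0.69 that was not called (adjusted p = 0.263).

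The lowered genes with a shared role were those of fatty acid synthesis. Of 22 measured genes, 6 were lowered and 0 raised at 24 and 30 h together (14 at an unadjusted p under 0.05), with a median of -0.643 beside -0.0149 over all genes. Taken singly, 24 h differed from time 0 at 227 of all genes (1.25%), 117 raised (0.643%) and 110 lowered (0.605%), and 11 of these 22 were lowered, with a median of -0.983. At 30 h 64 of all genes differed (0.352%), 47 raised (0.258%) and 17 lowered (0.0934%), and 1 of the 22 was lowered, with a median of -0.346. The 227 calls at 24 h were 109 and 149 without the first and the second time 0 array, 372 without the first 24 h array and 46 without the second, and the 11 of the list were 4, 5, 10 and 3. The 64 calls at 30 h were 38 without the first time 0 array, and 21 and 20 without the first and the second 30 h array. The 30 h against 24 h median was 0.582 and 0 of the 22 passed that test.

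Pnpla3, a lipid droplet protein whose gene is switched on by feeding and insulin, measured 381 and 281 at time 0, 57.1 and 29.6 at 24 h, and 73.2 and 69.7 at 30 h. All 4 later arrays were below both time 0 arrays by a wide gap, and the gene fell by 2.27 on the log2 scale (SE 0.22, adjusted p = 4.76e-06). It was the member called at 30 h alone (-1.97 ± 0.26, adjusted p = 0.000454). Pnpla3 was already low at 12 h, with a mean of 72.2, and the mean at 72 h was still 103.

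Elovl6, which lengthens palmitate, measured 623 and 385 at time 0, 133 and 104 at 24 h, and 221 and 221 at 30 h (-1.51 ± 0.25, adjusted p = 0.00185). Every later pool was lower than both time 0 pools, and without the first time 0 array the change was -1.17 and not called. Thrsp, a regulator of lipogenesis that responds to thyroid hormone and carbohydrate, measured 2551 and 3986 at time 0, 521 and 501 at 24 h, and 1828 and 2989 at 30 h. Its fall lay at 24 h (-2.61 ± 0.41, adjusted p = 0.00116), the second 30 h array was above the first time 0 array, and the difference of 30 h from 24 h was 2.16 ± 0.41 (adjusted p = 0.064). Its change over both times, -1.53 (adjusted p = 0.0357), was not called without either time 0 array (-1.85 and -1.20), without the second 24 h array (-1.51) or without the first 30 h array (-1.35).

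Mid1ip1, which promotes the assembly of acetyl-CoA carboxylase, measured 829 and 452 at time 0, 290 and 164 at 24 h, and 326 and 375 at 30 h (-1.10 ± 0.26, adjusted p = 0.0356). Mlxipl, the carbohydrate response factor ChREBP, had -0.94 (adjusted p = 0.0444) and Acaca, acetyl-CoA carboxylase itself, -0.81 (adjusted p = 0.0356). These 3 calls rested on single arrays: each was lost without the first time 0 array (-0.68, -1.05 and -0.65), the second 24 h array (-0.91, -0.76 and -0.73), the first 30 h array (-1.05, -0.89 and -0.74) or the second 30 h array (-1.15, -0.99 and -0.88). Without the second time 0 array Mlxipl (-0.83) and Acaca (-0.97) were lost as well. Over the mean of its probe sets Acaca had -0.39 and was not called.

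At 24 h alone the lowered members also held Acacb at -2.05 (adjusted p = 0.0138), Srebf1, the main transcription factor of lipogenesis, at -1.44 (adjusted p = 0.0371), Acss2, which makes acetyl-CoA from acetate, at -1.34 (adjusted p = 0.024), and Fasn, fatty acid synthase, at -1.23 (adjusted p = 0.0488). Srebf1 showed how far the pools differed, with 892 and 712 at time 0, 485 and 162 at 24 h, and 394 and 662 at 30 h. Leaving out the second 24 h array, these 4 changes were -1.13, -0.70, -1.06 and -1.37, none of them called. The count of the list over both times was 1 without the first time 0 array, 3 without the second, 9 without the first 24 h array, 2 without the second, and 2 and 3 without the first and the second 30 h array. It was 10 after quantile normalization, 1 in the fit of the 20 adult arrays and 0 when the 6 arrays were compared alone. Against 12 and 18 h, where 3.74% of all genes were higher and 4.39% lower, 5 members were higher and 1 lower. Among the higher were Srebf1 at 1.29 (adjusted p = 0.00152), Mid1ip1 at 1.10 (adjusted p = 0.00178) and Mlxipl at 1.09. The 5 were 3 without the first 24 h or the second 18 h array and 8 without the first 18 h array.

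**Figure D2:**
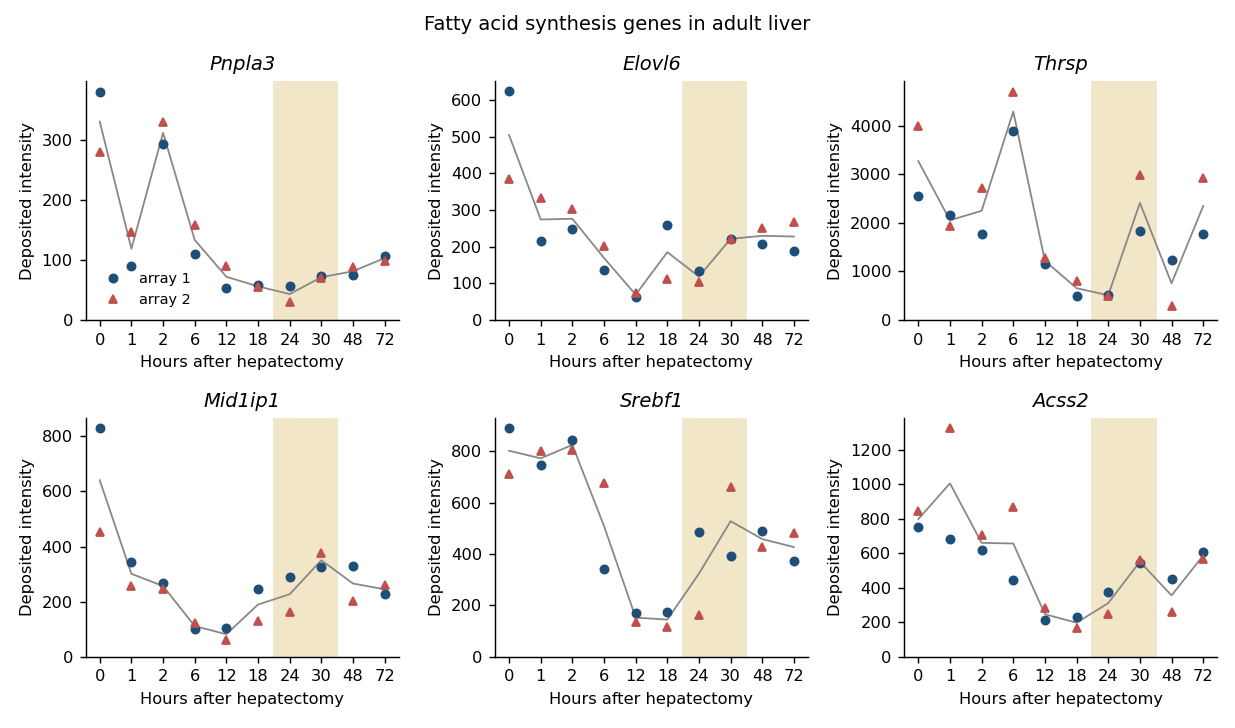
Signal of Pnpla3, Elovl6, Thrsp, Mid1ip1, Srebf1 and Acss2 (linear axis from 0) against hours after hepatectomy, drawn as in the plot of the acute phase genes. Pnpla3 stayed between 29.6 and 73.2 at 24 and 30 h against 281 and 381 at time 0, while Thrsp rose between 24 h (501 and 521) and 30 h (1828 and 2989).

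Among 21 genes of lipid droplets and fat uptake, 1 was raised and 0 lowered against time 0, with a median of 0.178. Apoa4, an apolipoprotein of triglyceride-rich particles, measured 702 and 693 at time 0, 4066 and 5632 at 24 h, and 3097 and 4250 at 30 h. The 4 later signals were all several times those of time 0, a rise of 5.86-fold (log2 2.55 ± 0.39 SE, adjusted p = 0.000919). The droplet genes that were higher at 12 and 18 h were not called against time 0: Cidec, which fuses droplets, was 25 and 33.6 at time 0, 23.8 and 73.4 at 24 h, and 26 and 35.2 at 30 h, against means of 471 and 362 at 12 and 18 h (-2.98 ± 0.24 from those times, adjusted p = 2.53e-07). Fabp4, a fatty acid carrier, was 102 to 159 at time 0 and 128 to 404 later (-2.33 from 12 and 18 h, adjusted p = 3.72e-06). Plin2, which coats droplets, fell by 1.22 from 12 and 18 h (adjusted p = 0.00183), and its difference from time 0 was 0.53 (adjusted p = 0.58). In all 7 of the 21 genes were lower than at 12 and 18 h, and 0 higher, beside 4.39% and 3.74% of all genes.

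The binding proteins of insulin-like growth factor moved in opposite directions. Igfbp1, which hepatocytes make in fasting and stress, measured 44.8 and 244 at time 0, 2346 and 3158 at 24 h, and 455 and 386 at 30 h. The 24 h pools stood highest, the 30 h pools were between them and time 0, and no later array overlapped time 0. The rise was 8.69-fold over both times (log2 3.12 ± 0.43 SE, adjusted p = 0.00042) and 4.45 ± 0.49 on the log2 scale at 24 h (adjusted p = 2.58e-05). At 30 h the difference from time 0 was 1.79 ± 0.49 (adjusted p = 0.176) and that from 24 h was -2.65 ± 0.49 (adjusted p = 0.0574). Time 0 itself was spread widely: without the first time 0 array the change over both times was 2.07 and without the second 4.17, both called. Without the second time 0 array the 30 h difference was 2.84 and was called.

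Igfbp3, the main carrier of insulin-like growth factor in plasma, measured 258 and 176 at time 0, 67.6 and 42.8 at 24 h, and 76 and 65 at 30 h. All later arrays were below both time 0 arrays, and Igfbp3 fell by 1.56 (SE 0.19, adjusted p = 6.65e-05). It was lowered at 24 h (-1.71, adjusted p = 0.000136) and at 30 h (-1.41, adjusted p = 0.00216), the latter not without the first time 0 array (-1.15) or the second 30 h array (-1.32). Igf1 was 2489 and 4702 at time 0 and 4326 to 4903 later, a difference of 0.43 ± 0.39 (adjusted p = 0.823).

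Egfr, the receptor for epidermal growth factor, measured 405 and 446 at time 0, 945 and 1175 at 24 h, and 1086 and 1218 at 30 h. No later pool was as low as a time 0 pool (log2 1.34 ± 0.28 SE, adjusted p = 0.0153). The call was lost without either time 0 array (1.27 and 1.41), without the second 24 h array (1.26) or the second 30 h array (1.30), and the mean of its probe sets differed by 0.59. Hgf, a growth factor for hepatocytes made by the other liver cells, was 43.7 and 47.7 at time 0, 78.4 and 111 at 24 h, and 53.6 and 67.3 at 30 h. Hgf was called at 24 h (0.83 ± 0.19, adjusted p = 0.035), not without either time 0 array (0.78 and 0.87) or the second 24 h array (0.61), and its 30 h difference was 0.30 (adjusted p = 0.916). Of 32 growth factors and receptors in all, 2 were raised and 1 lowered at both times together, with a median of -0.0284.

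Cdkn1a encodes p21, which halts the cell cycle at the entry to S phase. It measured 52.3 and 33.4 at time 0, 203 and 604 at 24 h, and 119 and 79.9 at 30 h. The order from 24 h to 30 h to time 0 held for every array, and the change was 3.53-fold over both times (log2 1.82 ± 0.27 SE, adjusted p = 0.000622) and 2.67 ± 0.31 at 24 h (adjusted p = 4.92e-05). At 30 h the difference from time 0 was 0.97 ± 0.31 (adjusted p = 0.296), and that from 24 h was -1.69 ± 0.31 (adjusted p = 0.0535). Against 12 and 18 h, with means of 962 and 592, Cdkn1a fell by 1.91 on the log2 scale (adjusted p = 1.12e-05).

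Of the other stress genes of this group, Gadd45g measured 63.8 and 88.4 at time 0, 209 and 318 at 24 h, and 124 and 162 at 30 h (1.19 ± 0.27, adjusted p = 0.028). Gadd45a went the other way, with 140 and 130, then 65.6 and 31, then 37.7 and 44.6 (-1.35 ± 0.25, adjusted p = 0.00544). In both genes the 4 later arrays lay on one side of time 0. The Gadd45g call was lost without either time 0 array (1.00 and 1.38), the second 24 h array (1.05) or the second 30 h array (1.10), and the Gadd45a call without the first time 0 array (-1.30). Among the 16 p53 targets and growth arrest genes, 2 were raised and 1 lowered, with a median of -0.021.

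The genes of cell division were followed through 3 lists. By limma 0 of 17 cyclins and regulators of G1, 0 of 31 genes of DNA replication and 0 of 30 genes of mitosis were called at 24 and 30 h, with medians of -0.0566, -0.0521 and -0.0786 (1, 5 and 0 at an unadjusted p under 0.05), beside 1.12% of all genes called, so that a count of 0 in lists of this size is no result about them. At 24 h alone Tk1, thymidine kinase, was lowered. It measured 156 and 134 at time 0, then 84.4 and 25.1, and 125.3 and 144 at 30 h (-1.32 ± 0.30, adjusted p = 0.0306), and it was not called without either time 0 array (-1.22 and -1.42) or the second 24 h array (-0.68). Against 12 and 18 h, 2 cyclins, 2 genes of replication and 1 of mitosis were higher and 1 gene of replication lower. Over all genes 3.74% were higher and 4.39% lower in that comparison. The 95% interval of the change lay inside 2-fold for 17 of the 17, 23 of the 31 and 20 of the 30, beside 86% of all genes. Of the mitosis genes, 21 had no signal of 50 or more on any of the 6 arrays, so that their changes were measured near background.

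Mki67, a marker of cycling cells, measured 24.1 and 17 at time 0, 12.9 and 0.548 at 24 h, and 24.7 and 13.4 at 30 h, 24.9 and 175 at 48 h and a mean of 189 at 72 h. Top2a, a topoisomerase of dividing cells, was 4.42 to 21.7 on the 6 arrays, against 46.7 and 250.2 at 48 h and a mean of 288 at 72 h. In both genes the higher 48 h array was the one with the outlying 3' to 5' ratios. Pcna, the clamp of the replication fork, measured 279 and 212 at time 0 and 222 to 325 later (0.17 ± 0.17, adjusted p = 0.85), with a mean of 1040 at 72 h. In these 3 genes the 24 and 30 h pools overlapped the time 0 pools. Ccnd1, the cyclin of G1, measured 787 and 521 at time 0, 469 and 488 at 24 h, and 647 and 586 at 30 h (-0.23, 95% interval -0.75 to 0.28). It was higher than at 12 and 18 h, where the means were 261 and 240 (1.11 ± 0.20, adjusted p = 0.00121).

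The immediate early genes open the growth response. Of 26 measured, by limma 0 were called at 24 and 30 h together against time 0 (1 at an unadjusted p under 0.05), with a median of 0.0328. Beside 1.12% of all genes called, a count of 0 in a list of this size is no result about it. Against 12 and 18 h, 6 of the 26 were lower and 0 higher, beside 4.39% and 3.74% of all genes. At 24 h alone Ier5 was raised, from 107 and 94.6 to 248 and 168, with 142 and 119 at 30 h (0.92 ± 0.18, adjusted p = 0.0112), and it was not called without the second time 0 array (0.84), without the first 24 h array (0.66) or over the mean of its probe sets (0.70). Ier3, described further on, was lower at 30 h than at 24 h. Jun measured 87.2 and 49.5 at time 0 and 41.8 to 106 later, and fell by 1.36 from 12 and 18 h (adjusted p = 0.000564). Fos and Egr1 were high on 1 array: on the first 24 h array they measured 269 and 1804, against 41.5 to 75.3 and 360 to 491 on the other 3 later arrays and 47.3 to 70.6 and 425 to 434 at time 0. Myc was 62.5 and 81.7 at time 0 and 57.2 to 87.9 later.

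Genes of ribosome biogenesis had come down from 12 and 18 h. Of 32 genes that make ribosomes, 0 were called against time 0 by limma (3 at an unadjusted p under 0.05), with a median of 0.0756 and 31 intervals inside 2-fold. Over all genes 1.12% were called and 86% had such an interval, so the count of 0 alone is no result about the list. Against 12 and 18 h, 18 of the 32 were lower and 0 higher, beside 4.39% and 3.74% of all genes. The list's median was -0.658 beside -0.0252 over all genes. Ncl, the nucleolar protein nucleolin, measured 445 and 336 at time 0, 262 and 365 at 24 h, and 274 and 280 at 30 h, against means of 629 and 784 at 12 and 18 h (-1.22, adjusted p = 4.55e-05). Gnl3, a nucleolar GTPase, had a difference of 0.38 from time 0 (adjusted p = 0.629) and fell by 0.96 from 12 and 18 h (adjusted p = 0.00161).

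The large metabolic groups held 0 or 1 call each at 24 and 30 h together, to be read beside the 1.12% of all genes called. By limma 0 of 31 listed cytochrome P450 genes of drug and steroid metabolism were called (7 at an unadjusted p under 0.05), 1 of 35 genes of the urea cycle and amino acid breakdown, 1 of 23 genes of bile acid synthesis and transport, 0 of 18 genes of cholesterol synthesis (1 at an unadjusted p under 0.05), and 1 of 25 plasma proteins outside the acute phase. Their medians were -0.0151, 0.261, 0.0118, 0.104 and 0.404. The last of these was 0.0345 after quantile normalization. At 24 h alone 2 of the 31 P450 genes were lowered, Cyp2b9 at -1.03 ± 0.25 (adjusted p = 0.0441) and Cyp2b13 at -1.5 ± 0.37 (adjusted p = 0.0444). Neither was called without the second time 0 array (-0.76 and -1.25) or the second 24 h array (-0.71 and -0.71), nor Cyp2b13 without the first time 0 array (-1.76). Alb, albumin, measured 8205 and 7464 at time 0 and 8504 to 9232 later (0.19 ± 0.24, adjusted p = 0.902), near the top of the scale.

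Against 12 and 18 h, 16 of the 35 genes of the urea cycle and amino acid breakdown were higher and 0 lower, with a median of 0.514. Over all genes 3.74% were higher and 4.39% lower, with a median of -0.0252. Cbs, which condenses homocysteine with serine, measured 819 and 1079 at time 0, 1239 and 915 at 24 h, and 1201 and 1299 at 30 h. Its means at 12 and 18 h were 380 and 317 (1.76 ± 0.23 from those times, adjusted p = 5.8e-05), and its difference from time 0 was 0.29 (adjusted p = 0.848). The 16 were 8 without the first 24 h array, without the second 30 h array or without the second 18 h array, and 9 without the second 12 h array. Oat, ornithine aminotransferase, was the member raised against time 0, with 1109 and 1282, then 2847 and 1985, then 1473 and 2053 (0.76 ± 0.17, adjusted p = 0.0267). Its call was lost without the first or the second time 0 array (0.66 and 0.87), the first 24 h array (0.63) or the second 30 h array (0.64), and after quantile normalization (0.37).

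Of the bile acid genes, 9 were higher and 1 lower than at 12 and 18 h, with 5 higher without the second 18 h array. Over all genes 3.74% were higher and 4.39% lower. The list's median was 0.426 beside -0.0252 over all genes. Abcb11, the pump that exports bile salts, measured 697 and 795 at time 0, 910 and 436 at 24 h, and 817 and 887 at 30 h, against means of 193 and 74.5 at 12 and 18 h (2.49 ± 0.29 from those times, adjusted p = 1.51e-05). Nr0b2, the nuclear receptor SHP that represses bile acid synthesis, was 287 and 130 at time 0 and 216 to 481 later, against 1.08 at 12 h and 193 at 18 h (2.59 ± 0.42, adjusted p = 0.000409). Both genes overlapped time 0, with differences of -0.02 and 0.59 that were not called (adjusted p = 1 and 0.807).

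Several hepatocyte enzymes and carriers stayed low. Hsd3b5, a steroid dehydrogenase that male mouse livers make at a higher level, measured 549 and 320 at time 0, 65.1 and 36.7 at 24 h, and 219 and 114 at 30 h (-2.03 ± 0.36, adjusted p = 0.00384). Slc22a26, an organic anion carrier, measured 711 and 918, then 314 and 68.4, then 328 and 370 (-1.74 ± 0.31, adjusted p = 0.0039). All later arrays were below time 0 in both, the second 24 h array lowest. The call of Hsd3b5 was lost without the first time 0 array (-1.65) and that of Slc22a26 without the second (-1.56). With Acot3 at -1.26, these were the 3 of 31 sex-biased liver genes that were lowered, 0 being raised, with a median of -0.213. Without either time 0 array 1 was lowered, and without the first 24 h array 8. The Acot3 call (adjusted p = 0.0359) was lost without either time 0 array (-1.05 and -1.46), the second 24 h array (-1.11) or either 30 h array (-1.20 and -1.31).

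Ugt2b37, a glucuronosyltransferase, measured 272 and 235 at time 0, 52.5 and 43.8 at 24 h, and 99.1 and 52.6 at 30 h (-1.83 ± 0.29, adjusted p = 0.00132). Ces1e, a carboxylesterase, measured 492 and 408, then 156 and 84.8, then 201 and 212 (-1.44 ± 0.21, adjusted p = 0.000715). Cyp2g1, a cytochrome P450 outside the list above, measured 163 and 148, then 35.4 and 15.9, then 60.8 and 50.6 (-1.67 ± 0.27, adjusted p = 0.00142). In these 3 genes no later array reached the lower time 0 array, which the naming rule required, and the second 24 h array was lowest in each. Sucnr1, the succinate receptor, measured 252 and 242, then 72.9 and 31.6, then 48.2 and 66.9 (-1.93 ± 0.39, adjusted p = 0.012), and was not called without either time 0 array (-1.90 and -1.96), the second 24 h array (-1.71) or the first 30 h array (-1.84). Nrep fell from 716 and 785 to 148 and 61 at 24 h and to 271 and 293 at 30 h (-2.06 ± 0.35, adjusted p = 0.00247).

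Sult1e1, a conjugation enzyme that sulphates oestrogens, rose. It was at -2.25 and 1.19 at time 0, which is background, and measured 82.3 and 656 at 24 h and 24.6 and 54 at 30 h. Every later array was above time 0, 1 array by far the most, and the log2 change of 2.82 ± 0.53 (adjusted p = 0.00695) was lost as a call without either time 0 array (2.77 and 2.87). Its size followed the added constant, with 4.44 at a constant of 4 and 1.5 at 64, where it was not called (adjusted p = 0.0671). C8a, a complement component, was the plasma protein gene called: 1006 and 1519 at time 0, 2179 and 2239 at 24 h, and 2618 and 3004 at 30 h (1.00 ± 0.22, adjusted p = 0.0241), not without the first time 0 array (0.71), the second 24 h array (0.99) or the second 30 h array (0.95).

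**Figure D3:**
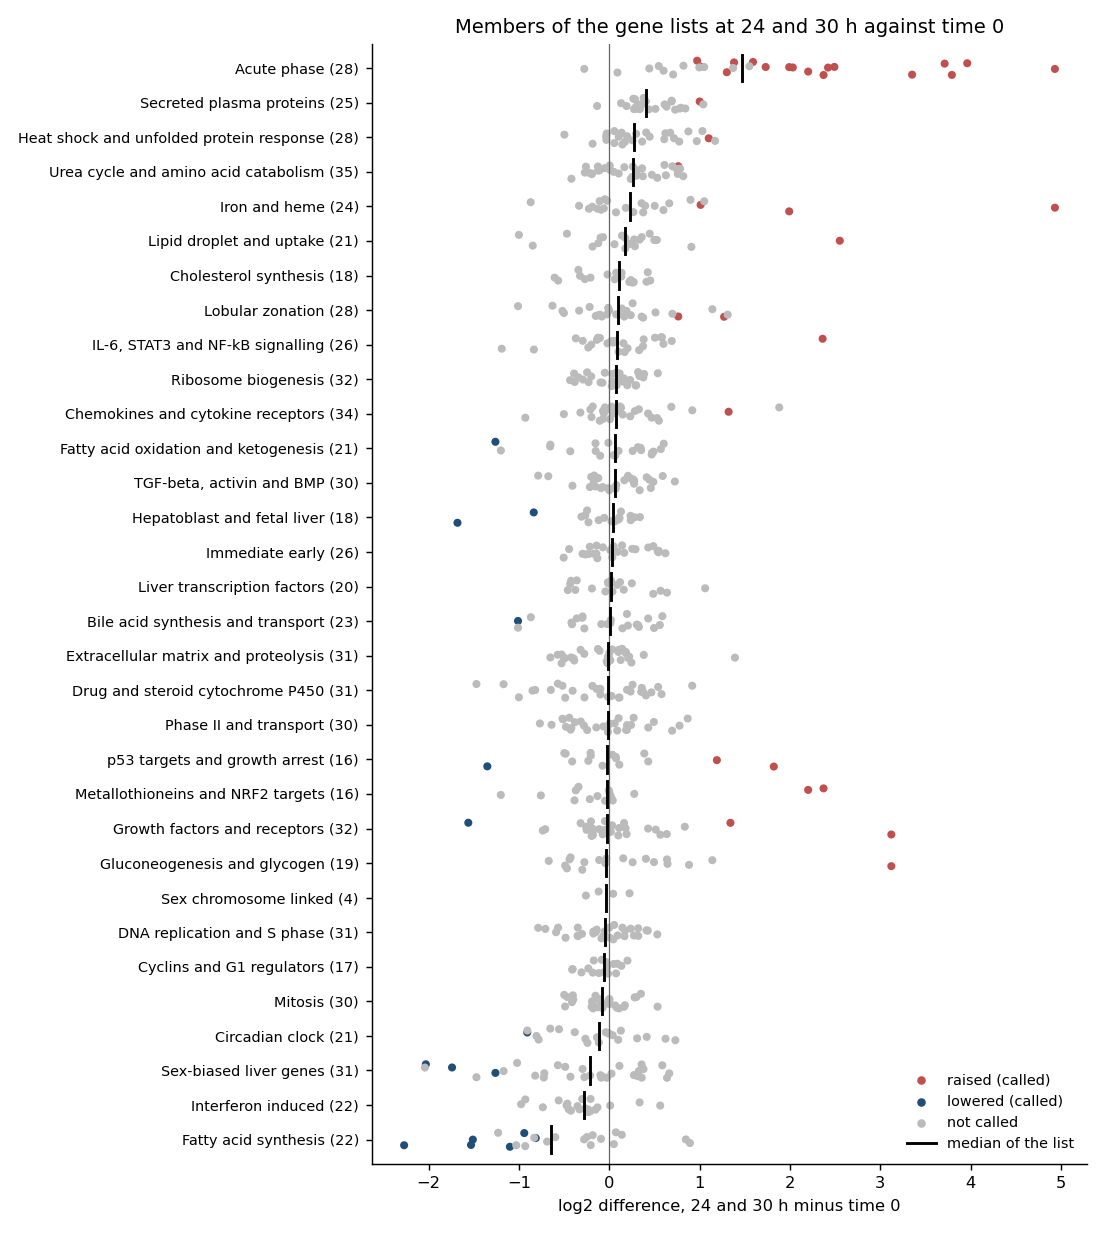
Log2 difference of 24 and 30 h from time 0 for the members of 32 gene lists, ordered by their median (black bar), with raised genes red, lowered genes blue and the rest grey. The acute phase list has the highest median, 1.47, and the fatty acid synthesis list the lowest, -0.643.

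Between 24 and 30 h, 5 of all genes differed (0.0275%), 3 higher (0.0165%) and 2 lower (0.011%) at 30 h, with 723 at an unadjusted p under 0.05. All 5 were measured on 2 arrays against 2. The count was 81 without the first 24 h array, 2 without the second, 1 without the second 30 h array, 10 after quantile normalization, 13 without the 48 h arrays in the fit and 0 when only the 20 adult arrays were fitted (658 at an unadjusted p under 0.05).

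Cyp7a1, the rate-limiting enzyme of bile acid synthesis, measured 626 and 264 at time 0, 62.7 and 69.3 at 24 h, and 346 and 799 at 30 h. It had been low at 12 and 18 h too, with means of 66.2 and 68.2. The 24 h pools were as low as those, below time 0 and 30 h, and the 30 h pools overlapped time 0. The value of 30 h minus 24 h was 2.73 ± 0.43 (adjusted p = 0.0294), 24 h minus time 0 was -2.37 ± 0.43 (adjusted p = 0.00546) and 30 h minus time 0 was 0.36 ± 0.43 (adjusted p = 1). Akr1c19, an aldo-keto reductase, measured 484 and 341 at time 0, 69.4 and 95.3 at 24 h, and 365 and 388 at 30 h. It followed the same course, with 2.01 ± 0.28 from 24 to 30 h (adjusted p = 0.00698) and -2.12 ± 0.28 from time 0 to 24 h (adjusted p = 0.000195).

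The other genes that differed held 2 members of the circadian clock list. Nr1d2, the clock repressor REV-ERB beta, measured 426 and 469 at time 0, 176 and 107 at 24 h, and 341 and 425 at 30 h (1.37 ± 0.23 from 24 to 30 h, adjusted p = 0.043). Cry1, another clock repressor, measured 77.8 and 43.2, then 150 and 213, then 56.7 and 68.8 (-1.31 ± 0.23, adjusted p = 0.0499). Both had moved at 24 h, by -1.59 and 1.39, and both overlapped or adjoined time 0 at 30 h. Of 21 clock genes, 1 was higher and 1 lower at 30 h than at 24 h. The part of time of day and of feeding in the differences between 24 and 30 h was not tested. Ier3, an early response gene, measured 43.6 and 43.1 at time 0, 65 and 64 at 24 h, and 11.8 and 14.4 at 30 h (-1.47 ± 0.26, adjusted p = 0.0498). All these signals were below the median signal of 74.6, whereas the means of Ier3 at 12 and 18 h were 248.8 and 299.7.

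These calls rested on few arrays. Cyp7a1 was not called without the second 24 h array (2.79) or the second 30 h array (2.14), and Akr1c19 without the second 30 h array (1.97). Nr1d2, Cry1 and Ier3 were not called without the second 24 h array (1.04, -1.08 and -1.48), the first 30 h array (1.52, -1.20 and -1.41) or the second 30 h array (1.22, -1.42 and -1.54). Cyp7a1 at 24 h was not called against time 0 without the first time 0 array (-1.77) or the second 24 h array (-2.43), nor Cry1 without the second time 0 array (1.06) or the second 24 h array (1.15).

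**Figure D4:**
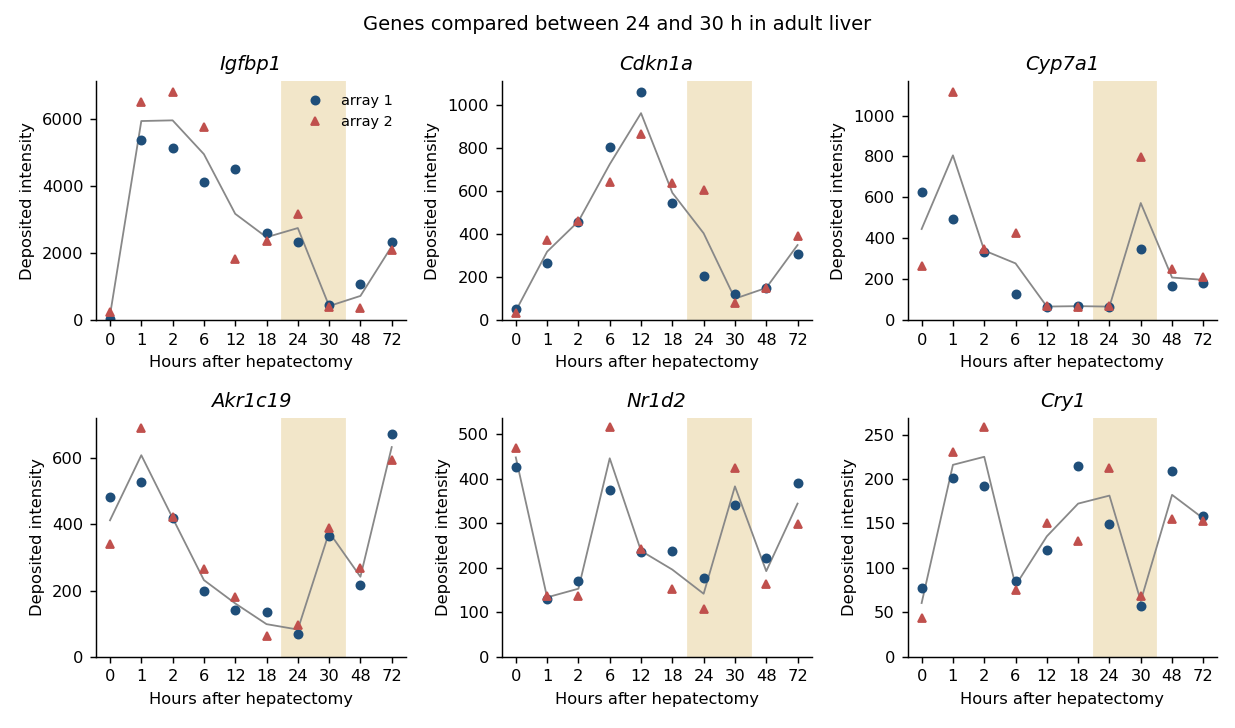
Signal of Igfbp1, Cdkn1a, Cyp7a1, Akr1c19, Nr1d2 and Cry1 against hours after hepatectomy, drawn as in the other time courses. Igfbp1, Cdkn1a and Cry1 were lower at 30 h than at 24 h on both arrays and Cyp7a1, Akr1c19 and Nr1d2 higher, with Igfbp1 and Cdkn1a outside the threshold (adjusted p = 0.0574 and 0.0535).

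Some raised genes belonged to none of the lists, and several of the largest changes came from 1 probe set among several. Mospd2 measured -38.8 and -142 at time 0 and 964 to 1834 later (6.20 ± 0.56), where its other 2 probe sets had differences of -0.09 and -0.23. Ighmbp2 measured 29.3 and 17.2 at time 0 and 1032 to 1945 later (5.03 ± 0.42), where its other 3 had 0.19, 0.03 and 0.32. Cep112 (5.53 ± 0.58) came from a probe set that can match several genes, and its others had 0.11 and -0.07. For these 3 genes the rise belongs to 1 probe set and was not matched by the others. Mospd2 and Ighmbp2 stayed called under every alternative, the mean of probe sets included, with lowest values of 1.96 and 1.4. That mean holds the probe set that rose.

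Of the 126 raised genes, 67 had 1 probe set and 59 had several. In 49 of the 59 no other probe set was called, and in 31 every other one had a difference under 0.3. Of the 77 lowered genes, 45 had 1 probe set and 32 several. Of these 32, 26 had no other called, and in 15 no other fell by 0.3 or more. A group mean below 0 occurred in 7 raised and 9 lowered genes, so that their size depends on the added constant. Among the latter were Arhgap10, at 286 and 430 at time 0 and 71.6 or less later, and Grin2c, at 207 and 96.9 at time 0 and -439 to -241 later. Raised genes with 1 probe set held Efcab9, at 356 and 311 at time 0 and 3012 to 4306 later (3.32 ± 0.27, adjusted p = 5.19e-07), and Klra17, at 206 and 323 at time 0 and 1982 to 2624 later (3.02 ± 0.34, adjusted p = 2.77e-05). With 1 probe set each, neither rise could be checked on another probe set of the gene.

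**Figure D5:**
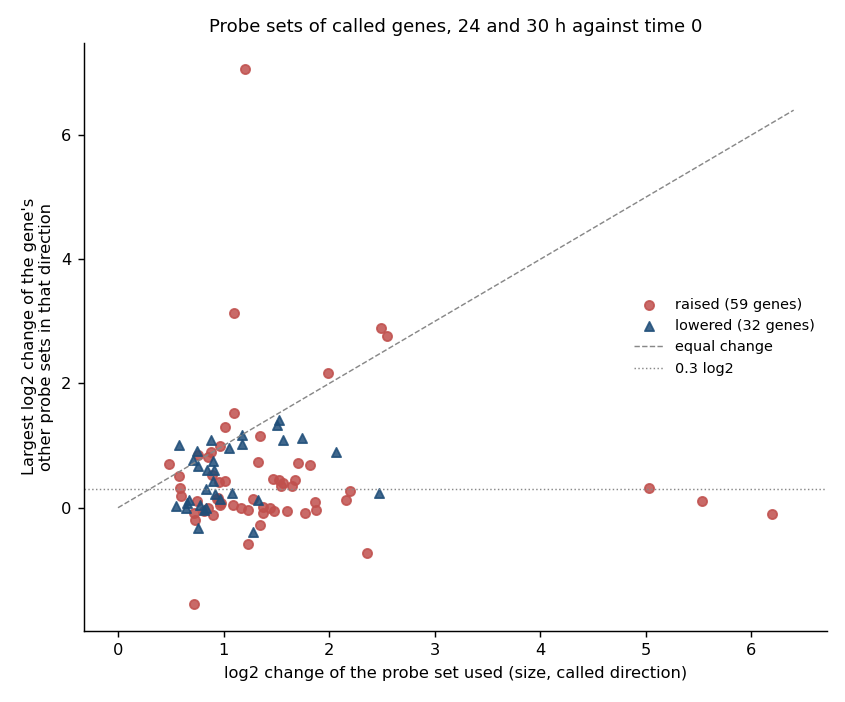
For the 59 raised and 32 lowered genes with several probe sets, the log2 change of the probe set used (x axis) against the largest change in that direction among the gene's other probe sets (y axis). The dashed line marks equality and the dotted line 0.3, under which 31 raised and 15 lowered genes lie.

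Markers of other cell types were counted beside a background of 1.12% of all genes called and 10.1% at an unadjusted p under 0.05. By limma 0 of 21 macrophage markers were called (3 at an unadjusted p under 0.05), with summed signals of 6817 and 6912 at time 0 and 6066 to 7884 later and 2 markers with no signal of 50 or more. The 22 endothelial, 24 stellate cell, 14 bile duct and 12 erythroid markers had 0 called as well (1, 10, 0 and 3 at an unadjusted p under 0.05). The 24 stellate cell markers had a median of -0.0868 and values from -0.66 to 0.64. At 24 h alone the erythroid marker Rhd was lowered (-1.21 ± 0.28, adjusted p = 0.0371) from 27.4 and 29.3 at time 0, near background, and was not called without either time 0 array (-1.24 and -1.18), without the second 24 h array (-0.94) or at an added constant of 64 (-0.45). Of 17 lymphocyte markers 1 was raised, Cd79b (0.74), and it was lost without any 1 of 5 of the 6 arrays, with values from 0.60 to 0.82.

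Of the 14 neutrophil markers, 2 were raised, Lrg1 and Chil3. The list had a median of 0.0655 and values from -0.273 to 2.26. All 4 later arrays lay above both time 0 arrays in 5 of the 14 and below both in 3. Over all genes these shares were 10.6% and 10.9%. Lrg1 is also made by hepatocytes in the acute phase, and measured 1148 and 1852 at time 0 and 6313 to 7809 later (2.26 ± 0.36, adjusted p = 0.00142). It was lost without the first time 0 array (1.92). Chil3 was at background, with -0.965 and -3.87 at time 0 and 11.5 to 37.2 later (1.29, adjusted p = 0.0178). Its call was lost without either time 0 array (1.29 and 1.29), without the first 30 h array (1.14) or at an added constant of 64 (0.45), and its size was 2.73 at a constant of 4. The sum of the 13 markers other than Lrg1 was 1104 and 1178 at time 0 and 1339 to 1482 later. S100a8 and S100a9, the abundant neutrophil proteins, had means of 69.8 and 114 at time 0, and signals of 147 to 225 and 212 to 282 later (adjusted p = 0.0631 and 0.106). Prtn3, a protease of neutrophil granules, rose from 26.5 and 27 to 187 and 96.7 at 24 h and 380 and 399 at 30 h (2.53 ± 0.37, adjusted p = 0.000622), and Ccl6, a chemokine of myeloid cells, from 117 and 85.2 to 232 to 352 (1.32 ± 0.19, adjusted p = 0.000472). The part of myeloid cells in these rises and in those of Lcn2 and Saa3 was not tested.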

How the data were processed

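Total liver RNA was measured on Affymetrix Mouse Genome 430 2.0 arrays, 2 per group. The values are array intensities as deposited by the authors in the series' value table, on a linear scale with 2.7% to 3.07% of values below 0 on the 6 arrays. For the software and scaling behind them, the labels and the table name nothing. The 75th percentiles of the 32 arrays spanned 0.374 on the log2 scale, so the deposited scaling was kept. The number of arrays limits the precision.

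Of 45101 probe sets, 34958 had 1 gene in the platform annotation, and each of 18194 genes was represented by the probe set with the highest mean. Values below 0 were set to 0, 16 was added, and log2 values were fitted with limma 3.58.1 in R 4.3.3, with 1 mean for each of 16 groups over all 32 arrays (16 residual and 4.72 prior degrees of freedom, with an intensity trend). All adjusted p-values are Benjamini-Hochberg values over the 18194 genes, called under 0.05, and intervals are 95%. Comparisons against time 0 share its 2 arrays, and the comparison with 12 and 18 h shares the 24 and 30 h arrays with them. The fit was tested on simulated data.

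The 41 gene lists (876 genes measured of 953) and the comparisons were chosen with earlier results of these data known. Genes were named by rule, as the 15 largest rises and falls for both times, the 5 largest for single times and for 30 h against 24 h (called, groups apart, higher mean above 74.6), or as members of a list. Promoters came from RefSeq. Alternatives were other added constants (4 and 64), quantile normalization, a filter on low values, the mean of probe sets, no ambiguous probe sets, other sets of arrays in the fit, a replicate block, and each array left out.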

Additional observations from a re-analysis of the deposited data

Results flagged for a closer look

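The difference between 30 h and 24 h, tested with limma on 2 arrays against 2, passed the threshold in 5 genes, whose change from time 0 therefore differed between these times. Cyp7a1 was higher at 30 h by 2.73 (log2), Akr1c19 by 2.01 and Nr1d2 by 1.37. The change of Cry1 was -1.31 and that of Ier3 -1.47.

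Probe sets with no gene in the annotation took no part in the comparisons of genes. Fitted in the same way, 32 of 9160 were raised and 13 lowered at 24 and 30 h against time 0.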

How the results depend on the processing

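The direction of the 203 genes called at 24 and 30 h held under each alternative but 2: with the mean of probe sets it held in 201 of 203, and without ambiguous probe sets in 193 of 199. On the latter Cep112 was -0.0658 against 5.53 as reported, and Plagl1, a lowered gene not described above, 0.0168 against -0.84. Of the 203, 30 were called in each of 15 alternatives other than the arrays compared alone. Counts are given in the order both times and 24 h against time 0, 30 h against 24 h, and both times against 12 and 18 h, and as reported were 203, 227, 5 and 1479. After quantile normalization the first 3 were 352, 391 and 10, and 30 h against 24 h had 9 with the filter on low values. The fit of the 20 adult arrays gave 74, 76, 0 (658 at an unadjusted p under 0.05 by limma) and 908. Without the 48 h arrays the first 3 were 411, 450 and 13. The arrays compared alone gave 19, 0, 0 and 52, with 1522 and 1023 at an unadjusted p under 0.05 by limma where 0 were called. Leaving out 1 array gave 93 to 334, 46 to 372, 1 to 81 and 824 to 1626. At 30 h against time 0, 0.352% of genes were called as reported, 0.577% after quantile normalization, 0.0385% in the fit of the 20 adult arrays, 0.786% without the 48 h arrays, 0.033% with the arrays compared alone, and 0.11% to 0.352% leaving out 1 array. A replicate block gave 184, 207, 2 and 1452, and 0.324% at 30 h. Arrays of the same number did not deviate together among time 0, 24 h and 30 h (correlations of -0.00557, -0.0992 and -0.00174), so the numbers were not read as pairs. The cause of these differences was not tested. Signals near or below 0 limit what can be said of genes at background.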
